A study of Rattus norvegicus with 18 samples.

Results

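The comparison described here set all 12 rats with a history of ethanol drinking against all 6 rats that had only a control diet, and so used 18 of the 18 libraries of the series. RNA came from the ventral tegmental area (VTA), dissected from the brains of adult male Sprague Dawley rats of wild-type (WT) genotype, and each library was made from 1 rat. Control rats (numbered 1 to 6) received a Lieber-DeCarli liquid diet without ethanol. The other 12 rats received such a diet with 9% v/v ethanol, and the diets lasted 15 or 16 days. Rats 7 to 12 were taken at 0 h of withdrawal and are called chronic ethanol rats, and rats 13 to 18 were taken 24 h after ethanol stopped and are called withdrawal rats. The rats were joined by their labels alone, with no measured value used, and the contrast was the mean of both ethanol groups minus control. It was set up for what differs from control on ethanol and still differs after 24 h without it. As an average it can also pick up a gene changed in 1 ethanol group only, so it is no test of persistence. Many genes are therefore given with both ethanol groups side by side, and others only for the 12 ethanol rats together. The comparisons of each ethanol group with control share the 6 control rats and are not separate results.

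The VTA is a midbrain region whose dopamine neurons project to the striatum and cortex and respond to reward and to cues that predict it. Ethanol raises the firing of these neurons, and withdrawal after long intake lowers it. The tissue also holds GABA and glutamate neurons, astrocytes, oligodendrocytes, microglia and blood vessels, and bulk RNA sums over all of them. Fewer cells of a type and less RNA per cell therefore cannot be told apart in any value below.

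Libraries held 29.6 to 45.1 M counted fragments (control mean 37.2 M, chronic ethanol mean 39.6 M, withdrawal mean 36.1 M). Of 38445 genes, 17637 passed the filter on low counts and were tested. The dopamine neuron markers Th and Slc6a3 were at 233 to 763 CPM (counts scaled to a total of 1 M) and 235 to 735 CPM in control rats, and well below that range in withdrawal rat 17 (17.6 and 2.56 CPM), ethanol rat 8 (69.0 and 68.2 CPM) and withdrawal rat 13 (117 and 117 CPM). Rat 13 also stood apart by 18688 CPM summed over 18 pineal and phototransduction genes against 12.8 to 20.1 CPM in the other 17 libraries. Control rat 3 stood apart in genes of meninges and smooth muscle, whose values are given with those genes. Hoxb3, a patterning gene of the hindbrain, was highest in control rat 5 and ethanol rat 8 (31.4 and 30.7 CPM). Results are given without rats 5, 8, 13 and 17 where that changes a call. The first index in the library names was shared by rats 1 to 8, another by rats 9 to 16 and another by rats 17 and 18. All control libraries thus share their index with ethanol rats 7 and 8 only, and index and the change in withdrawal cannot be told apart.

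After any ethanol history 2 genes differed from control, both lower. They were Capn6, a calpain family member without protease activity that binds microtubules, and the long noncoding RNA LOC108352949. Capn6 was at 1.96 ± 0.755 CPM after ethanol against 4.64 ± 0.747 CPM in control, and LOC108352949 at 5.19 ± 1.83 against 12.6 ± 1.74 CPM (SD, n = 12 and n = 6). These 2 calls make up 0.0113% of the genes tested with edgeR's quasi-likelihood test at an adjusted p under 0.05. No gene was called higher. At an unadjusted p under 0.05 there were 869 genes (4.93%), of which 447 lay higher (2.53%) and 422 lower (2.39%), and DESeq2 called 10 higher and 22 lower. RefSeq promoters of the 2 genes, from 250 bases before to 50 bases after the start in GRCr8, are shown because the fit separated these genes from all others. Capitals mark CCAAT or, on the other strand, ATTGG, the box bound by the factor NF-Y, which was found once in the Capn6 window and not in that of LOC108352949. Each sequence runs 5′ to 3′ on the strand of its gene.
Capn6 (chrX:112202129-112202428, minus strand): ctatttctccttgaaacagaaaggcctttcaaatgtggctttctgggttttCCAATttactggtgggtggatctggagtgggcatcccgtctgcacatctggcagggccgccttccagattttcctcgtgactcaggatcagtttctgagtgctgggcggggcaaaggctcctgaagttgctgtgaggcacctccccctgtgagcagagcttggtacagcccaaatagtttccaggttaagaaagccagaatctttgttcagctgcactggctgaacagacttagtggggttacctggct
LOC108352949 (chr15:66664449-66664748, minus strand, the first of 2 entries): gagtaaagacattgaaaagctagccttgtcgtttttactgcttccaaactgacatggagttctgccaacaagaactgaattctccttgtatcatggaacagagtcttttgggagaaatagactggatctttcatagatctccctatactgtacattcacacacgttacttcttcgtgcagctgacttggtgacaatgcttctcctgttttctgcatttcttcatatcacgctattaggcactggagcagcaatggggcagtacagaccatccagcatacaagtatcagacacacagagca

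Capn6 lies on chromosome X at 115049113 to 115073824, minus strand, in Rnor_6.0, with 13 exons of 3494 bases in all. Its level was 3.89 CPM in the lowest control rat, 4.56 CPM at the median and 5.83 CPM in the highest. In chronic ethanol it ran from 1.26 over a median of 1.63 to 2.44 CPM, and in withdrawal from 1.27 over 2.06 to 4.00 CPM. Among the ethanol rats 11 of 12 were below all controls, and the exception was withdrawal rat 13, the library with pineal RNA. Capn6 thus fell by 1.26 ± 0.19 on the log2 scale (SE; edgeR adjusted p = 0.0328; 95% interval -1.66 to -0.87). Taken apart, the change was -1.48 in chronic ethanol and -1.04 in withdrawal. Rat 13 held the highest withdrawal value, and the other withdrawal rats (1.27 to 2.35 CPM) lay within the range of the chronic ethanol rats. Withdrawal differed from chronic ethanol by 0.44 (95% interval -0.03 to 0.92; edgeR adjusted p = 0.357), so a partial return by 24 h was not shown, though the interval holds one.

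Genes on either side of Capn6 were not called. Pak3, a kinase of the neuronal cytoskeleton, had a log2 change of -0.10, and Dcx, the doublecortin of migrating neurons, one of -0.02 (edgeR adjusted p = 0.952 and 0.989). Of 10 calpain family genes tested, Capn6 was the 1 called, and the median log2 change of the family was 0.0048. Capn10 had the next lowest p, at a log2 change of 0.17 (edgeR adjusted p = 0.948), and Cast, the calpain inhibitor calpastatin, was at -0.13.

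LOC108352949 lies on chromosome 15 at 67567690 to 67588470, minus strand, in Rnor_6.0. It sits inside Pcdh17, a protocadherin of cell adhesion read from the plus strand (67555835 to 67647990), and 0 of the 9949 bases in its 6 exons fall in exons of Pcdh17. Control rats had 10.3 to 14.3 CPM with a median of 13.3 CPM. Chronic ethanol rats had 3.39 to 9.81 CPM (median 4.21) and withdrawal rats 2.89 to 6.97 CPM (median 5.23). All 12 ethanol rats lay below all 6 control rats, with ethanol rat 10 closest to them. LOC108352949 fell by 1.28 ± 0.19 on the log2 scale (SE; edgeR adjusted p = 0.0328). It was -1.27 in chronic ethanol and -1.29 in withdrawal, a difference of -0.02 (95% interval -0.51 to 0.48). Pcdh17 itself was at 127 CPM after ethanol and 125 CPM in control, a log2 change of 0.02 (edgeR adjusted p = 0.993). Fragments were counted by strand.

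**Figure D1:**
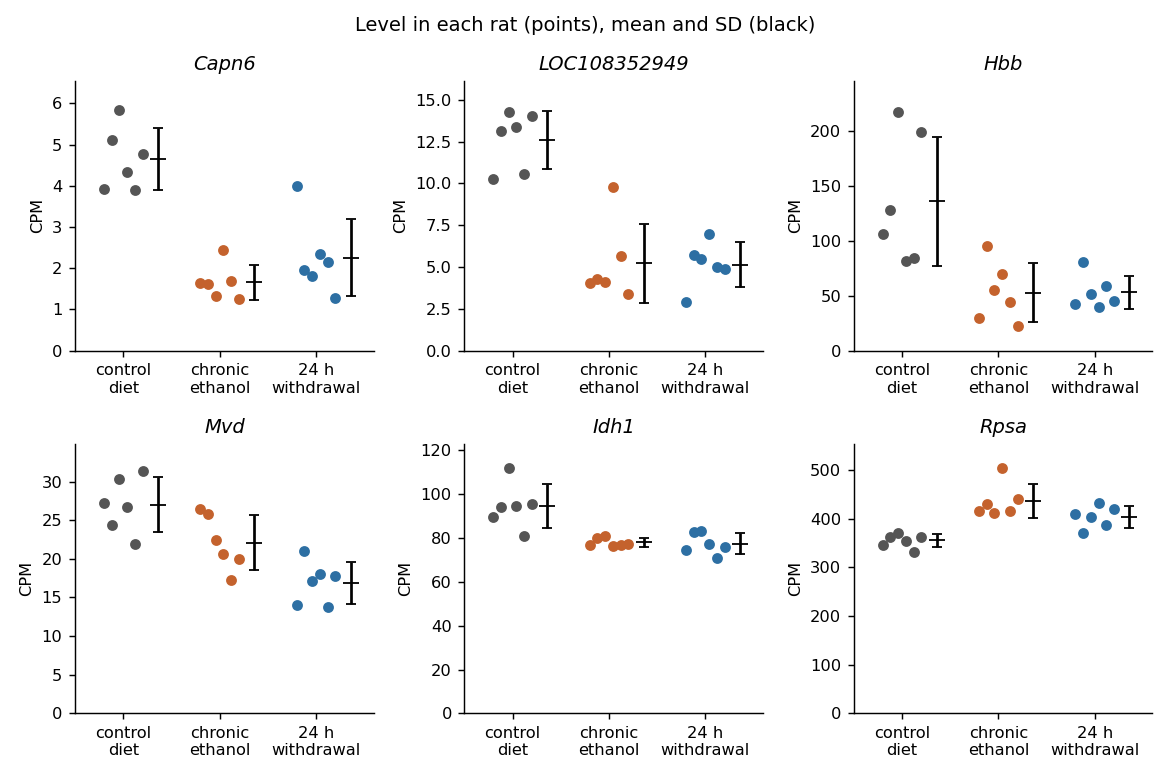
Level in CPM of 6 genes in each of the 18 rats (points, 6 per group), with the group mean and SD in black beside them. Capn6 and LOC108352949 are lower in both ethanol groups, while Mvd is lowest in withdrawal (median 17.4 CPM against 21.5 in chronic ethanol and 26.9 in control).

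Both calls lay close to the threshold. With each of the 18 rats left out in turn, the log2 change of Capn6 stayed between -1.38 and -1.19 and that of LOC108352949 between -1.42 and -1.22, but both calls were lost in most of these fits. Capn6 was called in 4 of 18, without control rat 5, ethanol rat 10 or withdrawal rats 13 or 18, and LOC108352949 in 3, without rats 5, 10 or 13. Among rats that share the first index, the mean log2 CPM of ethanol rats 7 and 8 was 0.75 against 2.22 in the 6 controls for Capn6, and 2.08 against 3.65 for LOC108352949. Those differences of -1.47 and -1.57 stand beside pooled ones of -1.28 and -1.33, but rest on 2 rats. Rat 7 had Pmch, a gene of the hypothalamus, at 292 CPM, beside 1.04 to 2.33 CPM in controls. Rat 8 had high Hoxb3 and low Th. Whether the tissue taken played a part was not tested. Without rats 5, 8, 13 and 17 LOC108352949 lost its call (log2 change -1.23, edgeR adjusted p = 0.0505) and Capn6 kept it. With the index as a term neither gene was called (log2 change -1.22 with edgeR adjusted p = 0.926, and -1.65 with adjusted p = 0.890).

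**Figure D2:**
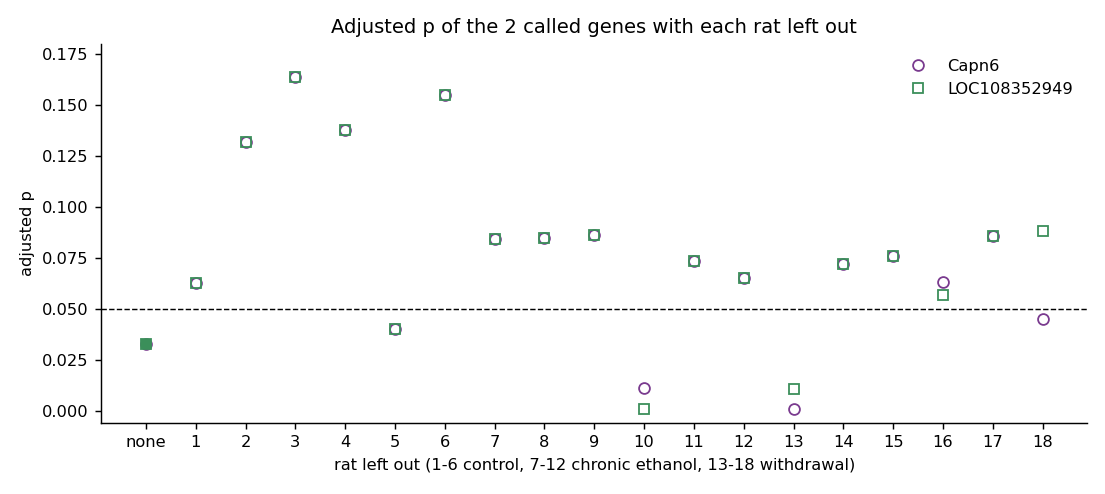
Adjusted p from edgeR for Capn6 (circles) and LOC108352949 (squares) with no rat left out (filled) and with each rat left out (open), against the number of the rat. The dashed line is the threshold of 0.05, and most open points lie above it, up to 0.164.

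The 30 genes with the lowest p and a mean of at least 1 CPM comprised 23 lower and 7 higher ones. Beyond the 2 above none passed, with edgeR adjusted p from 0.230 to 0.475, so the differences below are values that did not pass the test. DESeq2 called 28 of the 30, all but Gpr17 and Hba-a3, beside 32 of all 17109 genes it tested. It used the same counts and contrast by which the 30 were chosen, so its calls are no separate support. In 28 of the 30 at least 9 of 12 ethanol rats lay outside the control range on one side, as in 315 of all 17637 genes, and since the 30 were chosen by their p in this contrast nothing is read from that count. Between withdrawal and chronic ethanol, a contrast that uses no control rat, 5 of the 30 had an unadjusted p under 0.05 (16.7%), against 15.3% of all genes tested. All 5 were lower in withdrawal, and 3 of them (Mvd, Hsd17b7 and Acat2) belong to cholesterol synthesis.

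**Figure D3:**
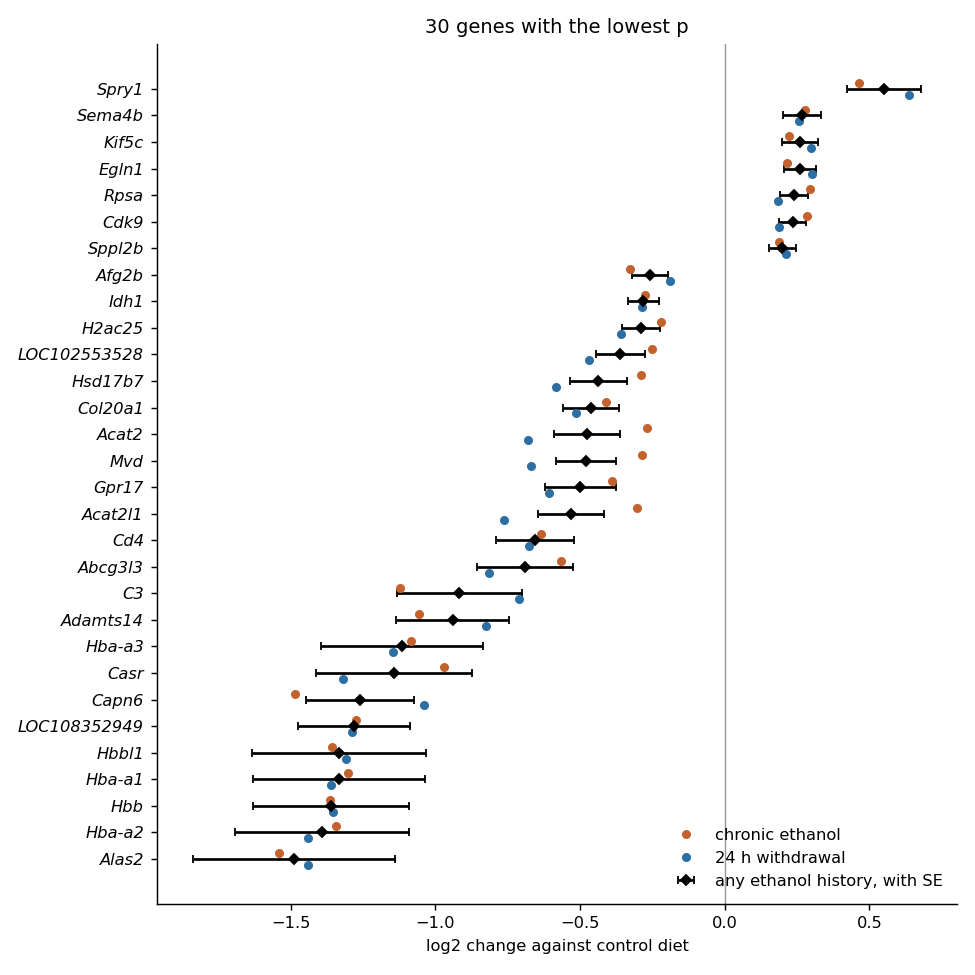
Log2 change against control diet (x axis) of the 30 genes with the lowest p, ordered by size: any ethanol history with its SE (black diamonds), chronic ethanol (orange) and 24 h withdrawal (blue). Of these genes 23 lie below 0 and 7 above, and for most of them the orange and blue points lie close together. Both points share the control rats, and the genes were chosen by their p for both ethanol groups together. Persistence is therefore not read from the closeness of the points.

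Among the 30 genes, the 5 widest differences were those of red blood cell transcripts, all lower after ethanol. Globin transcripts are carried mainly by red blood cells and have also been described in midbrain dopamine neurons. Hbb, a beta-globin (chromosome 1, 168971269 to 168972680, Rnor_6.0), ran from 81.4 over a median of 117 to 217 CPM in control rats. Chronic ethanol rats had 22.4 to 94.8 CPM (median 49.9) and withdrawal rats 39.9 to 80.6 CPM (median 48.7). Ethanol rat 8 was the 1 ethanol rat within the control range, and the other 11 lay below it. The log2 change of Hbb was -1.36 ± 0.27 (SE; edgeR adjusted p = 0.230), with -1.37 in chronic ethanol, -1.35 in withdrawal and 0.01 between them (95% interval -0.67 to 0.69). Within the shared first index the difference was -1.24.

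The alpha-globins lay lower by like amounts, with log2 changes of -1.33 ± 0.30 for Hba-a1, -1.39 ± 0.30 for Hba-a2 and -1.12 ± 0.28 for Hba-a3 (SE; edgeR adjusted p = 0.329, 0.284 and 0.475). Hbbl1, another beta-globin gene, was at 18.1 ± 7.58 against 45.6 ± 22.9 CPM. Globin copies share sequence, and fragments that match several places were left out of the counts, so the level of each copy is uncertain. Alas2, the heme synthesis enzyme of the red cell lineage and no globin, was at 1.24 ± 0.593 against 3.48 ± 1.90 CPM (SD, n = 12 and n = 6), a log2 change of -1.49. Epb42, a membrane protein of red cells, had a mean of 0.342 CPM on ethanol, 0.657 CPM after withdrawal and 0.675 CPM on control diet. Of the 6 red blood cell genes tested, 5 had an unadjusted p under 0.05 and all of these were lower, beside 2.39% lower among all genes tested. Their median log2 change was -1.35, beside 0.0095 over all genes.

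How much blood each dissected sample held was not measured. The summed level of the 11 red blood cell genes in the files, none of them at 0 in every library, ran from 186 to 529 CPM in control, 53.4 to 238 CPM in chronic ethanol and 94.5 to 177 CPM in withdrawal. Endothelial genes, of the vessel wall, had a median log2 change of 0.0458 over 23 tested. Cldn5, the tight junction protein of brain endothelium, ran from 66.2 to 115 CPM in control and from 47.2 to 122 CPM after ethanol. With the first index as a term 0 of the 6 red cell genes had an unadjusted p under 0.05, at a median log2 change of -1.10.

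Most genes of cholesterol synthesis lay lower, with a smaller median change on ethanol than after 24 h of withdrawal. Brain cells make their own cholesterol from acetyl-CoA through mevalonate, squalene and lanosterol, and SREBP-2 with NF-Y drives most of the genes. Of 20 genes tested 18 lay lower (46.5% of all genes did) and 14 had an unadjusted p under 0.05, all lower (70%, beside 2.39% of all genes). None passed over all genes with edgeR, and DESeq2 called 3 (Mvd, Hsd17b7 and Acat2). The median log2 change was -0.26, with -0.16 in chronic ethanol and -0.42 in withdrawal. The promoter of Mvd is shown because this gene had the lowest p of the pathway, again from 250 bases before to 50 bases after the start in GRCr8.
Mvd (chr19:67414925-67415224, minus strand): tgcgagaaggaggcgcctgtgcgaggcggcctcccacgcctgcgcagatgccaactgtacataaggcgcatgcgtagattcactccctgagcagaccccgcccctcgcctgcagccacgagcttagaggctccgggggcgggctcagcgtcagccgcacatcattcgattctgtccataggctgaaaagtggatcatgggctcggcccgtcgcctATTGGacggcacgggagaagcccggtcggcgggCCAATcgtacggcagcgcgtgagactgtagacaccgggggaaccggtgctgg
Capitals mark CCAAT or ATTGG, found on both strands here. The CCAAT box was in 12 of the 15 promoters that RefSeq gave for the pathway (80%), beside 37.7% of all 27457 promoters of that length, 75% of 8 promoters of red blood cell genes and 24% of 25 promoters of small ribosomal subunit genes. The letters CACCCCAC, a sterol element of SREBP, were in 1 of the 15 and in 2.57% of all. A match of letters is no measured site.

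Mvd, the mevalonate diphosphate decarboxylase (chromosome 19, 55258910 to 55268933, Rnor_6.0), was at 21.9 to 31.4 CPM in control rats with a median of 26.9 CPM. Chronic ethanol rats had 17.3 to 26.4 CPM (median 21.5) and withdrawal rats 13.8 to 21.0 CPM (median 17.4). All 6 withdrawal rats lay below every control, and 3 of 6 chronic ethanol rats did. Its log2 change was -0.48 ± 0.10 (SE; edgeR adjusted p = 0.291), split as -0.29 in chronic ethanol and -0.67 in withdrawal. Withdrawal was lower than chronic ethanol by -0.38 (95% interval -0.64 to -0.12; edgeR unadjusted p = 0.00613, adjusted p = 0.187). Ethanol rats 7 and 8 differed from the controls on the same index by a mean log2 of -0.035.

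The first enzymes of the pathway showed the same order of groups. Acat2, the cytosolic thiolase that joins acetyl-CoA units, was at 35.3 ± 3.15 CPM in control, 29.3 ± 5.33 in chronic ethanol and 22.05 ± 4.44 in withdrawal (SD, n = 6). Hmgcs1, the HMG-CoA synthase, stood at 523 ± 22.2, 449.6 ± 94.3 and 331 ± 83.3 CPM in the same order. Mvk, the mevalonate kinase, had a log2 change of -0.22, but Pmvk, the next kinase, one of 0.0053. Among the enzymes that lead to squalene, the log2 change was -0.39 for Idi1, -0.33 for Fdps and -0.34 for Fdft1. Idi1 lay below every control in 11 of 12 ethanol rats.

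In the squalene to cholesterol steps, Sqle, the squalene epoxidase, stood at 109 ± 7.72 CPM (control), 92.4 ± 10.5 CPM (chronic ethanol) and 79.8 ± 14.1 CPM (withdrawal). Cyp51, the lanosterol demethylase, had a log2 change of -0.35 and Lss, the lanosterol synthase, one of -0.20. Hsd17b7, a ketosterol reductase, was at 25.4 ± 2.27 CPM in control, 20.8 ± 2.46 in chronic ethanol and 16.9 ± 3.24 in withdrawal, with all controls above 10 of the 12 ethanol rats. Ebp, a sterol isomerase of the late pathway, did not reach an unadjusted p of 0.05 (log2 change -0.10). Tm7sf2 had a positive fitted log2 change, 0.24 ± 0.42, although 9 of 12 ethanol rats lay below all controls and 2 above, with a withdrawal SD of 29.9 CPM around a mean of 22.3 CPM.

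Between withdrawal and chronic ethanol 10 of the 20 pathway genes had an unadjusted p under 0.05 and all 10 were lower in withdrawal (50%, beside 15.3% of all genes). The median of that difference was -0.28. None of the 20 passed after adjustment over all genes with edgeR. With the first index as a term 1 of 20 had an unadjusted p under 0.05 against control and the median was -0.14, while without rats 5, 8, 13 and 17 it was 19 of 20.

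**Figure D4:**
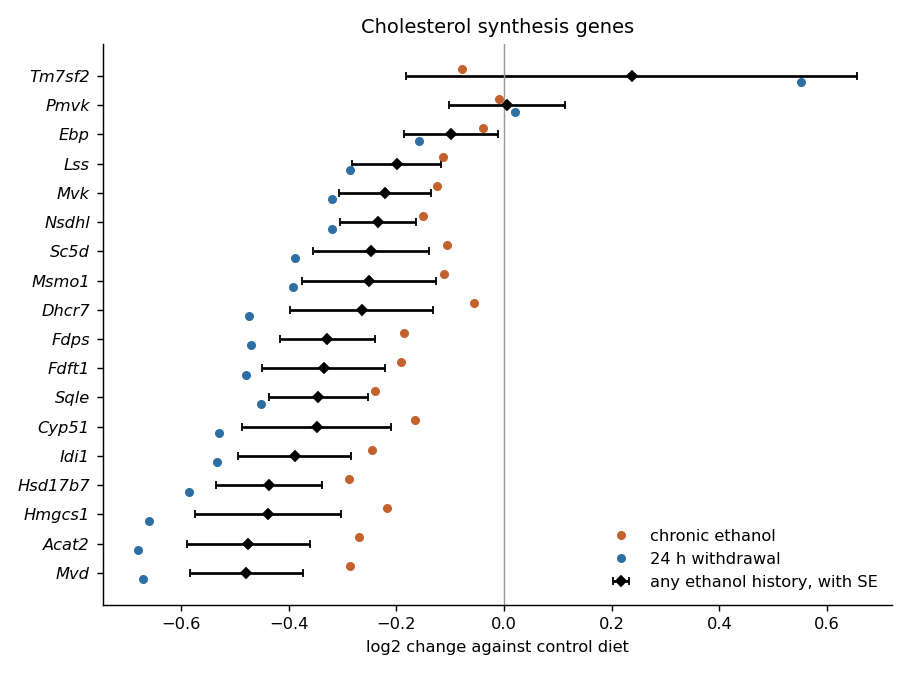
Log2 change against control diet (x axis) of 18 of the 20 cholesterol synthesis genes tested: any ethanol history with its SE (black diamonds), chronic ethanol (orange) and 24 h withdrawal (blue). In 16 genes the blue point lies to the left of 0 and of the orange one, and Tm7sf2 and Pmvk are the exceptions.

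Next to Acat2 on chromosome 1 (47972399 to 47992654) lie Acat2l1 (48008574 to 48025730), a second thiolase gene, and the noncoding RNA LOC102553528 (47969690 to 47972459, opposite strand). Acat2l1 was at 5.93 ± 1.40 against 8.47 ± 1.04 CPM, a log2 change of -0.53, and LOC102553528 at 10.2 ± 1.55 against 13.0 ± 1.00 CPM, one of -0.36 (SD, n = 12 and n = 6). Both were also lower in withdrawal than in chronic ethanol (-0.46 and -0.22; edgeR unadjusted p = 0.00303 and 0.0443, adjusted p = 0.161 and 0.317). Acat2 and Acat2l1 are near copies, and fragments that match several places were left out of the counts, so the level of each is uncertain.

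Genes that regulate sterols did not move as a block. Of 19 genes of sterol regulation, uptake and efflux 3 had an unadjusted p under 0.05 (15.8%, beside 4.93% of all genes), 1 higher and 2 lower. Srebf1, whose SREBP-1 protein drives fatty acid genes, was higher, at 110 to 182 CPM in chronic ethanol (median 136) and 135 to 163 CPM in withdrawal (median 139) against 91.7 to 137 CPM in control (median 108). Its log2 change was 0.32 ± 0.10 (SE; edgeR adjusted p = 0.820), with 6 of 12 ethanol rats above every control. Stard4, a carrier of cholesterol between membranes, lay lower by -0.38 and Insig1, the protein that holds SREBP back in the endoplasmic reticulum, by -0.32. Fatty acid synthesis genes lay lower in 13 of 16, with a median of -0.10. Fasn, the fatty acid synthase, and Elovl6 lay lower and Elovl2 higher at an unadjusted p under 0.05 (log2 change -0.20, -0.36 and 0.28). These 3 were 18.75% of the fatty acid list, beside 4.93% of all genes.

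Genes of the small ribosomal subunit lay slightly higher. All 29 tested had a positive log2 change, with a median of 0.14 (0.20 in chronic ethanol, 0.07 in withdrawal), and 9 had an unadjusted p under 0.05 (31.0%, beside 2.53% higher among all genes). None passed over all genes with edgeR, and DESeq2 called Rpsa and Rps27a. Rpsa, a subunit protein that also serves as a laminin receptor, was at 333 to 371 CPM in control (median 359). It was at 412 to 505 CPM in chronic ethanol (median 423) and 371 to 432 CPM in withdrawal (median 406). All 6 chronic ethanol rats and 5 of 6 withdrawal rats lay above every control, with ethanol rat 10 the highest. Rpsa had a log2 change of 0.24 ± 0.05 (SE; edgeR adjusted p = 0.230). Rps27a followed at 0.18, with 10 of 12 ethanol rats above every control. By the settings in the file headers, fragments that match several places were left out of the counts, and ribosomal protein genes have many processed copies.

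The counts hold 24 entries of the mitochondrial chromosome, of which 18 were tested. The 2 with the lowest p carry no symbol and are 68 and 64 bases long. The list is therefore not read as transcripts of respiratory chain proteins. Of the 18 entries 16 lay higher (9435 of all 17637 genes did), with a median of 0.25. At an unadjusted p under 0.05, 7 were higher (38.9%, beside 2.53% of all genes). With the first index as a term that median was 6.05e-05 and none had an unadjusted p under 0.05. Nuclear genes of oxidative phosphorylation lay lower in 26 of 37, with a median of -0.03 and 0 at an unadjusted p under 0.05.

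In metabolism and gene regulation, the third lowest p belonged to Idh1, the cytosolic isocitrate dehydrogenase that makes NADPH (chromosome 9, 71882108 to 71911645, Rnor_6.0). Control rats had 81.0 to 112 CPM (median 94.4), chronic ethanol rats 76.3 to 81.0 CPM (median 77.1) and withdrawal rats 70.9 to 83.4 CPM (median 76.5). The ethanol rats clustered tightly, and 9 of 12 were below every control. For Idh1 the log2 change was -0.28 ± 0.05 (SE; edgeR adjusted p = 0.230), with -0.01 between withdrawal and chronic ethanol (95% interval -0.14 to 0.12). Without rats 5, 8, 13 and 17 it was called (log2 change -0.31, edgeR adjusted p = 0.0467). Of 13 genes of ethanol, acetaldehyde and acetate metabolism 0 had an unadjusted p under 0.05. Acss2, which turns acetate into acetyl-CoA, was nearest at -0.25, and Cat, the catalase that also oxidises ethanol, stood at -0.12.

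Cdk9, the kinase that releases paused RNA polymerase II, was at 72.8 to 89.4 CPM in chronic ethanol (median 80.7) and 70.1 to 78.8 CPM in withdrawal (median 77.0) against 63.2 to 71.3 CPM in control (median 65.4). That put 11 of 12 ethanol rats above every control (log2 change 0.23 ± 0.05, SE; edgeR adjusted p = 0.230). The other 15 elongation genes tested had no unadjusted p under 0.05. Egln1, the prolyl hydroxylase that marks HIF for decay in the presence of oxygen, was at 60.3 ± 4.78 against 50.4 ± 3.46 CPM (log2 change 0.26). H2ac25, a histone H2A gene, was lower by -0.29, and Afg2b, an AAA ATPase, by -0.26.

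Among signalling and transport genes, Spry1, an inhibitor of receptor tyrosine kinase signalling, was at 4.17 ± 0.581 against 2.85 ± 0.582 CPM (log2 change 0.55, 10 of 12 ethanol rats above every control). Kif5c, a neuronal kinesin heavy chain, was at 839 ± 75.6 against 700.4 ± 48.6 CPM (log2 change 0.26). Sema4b, a semaphorin, and Sppl2b, an intramembrane protease, were higher by 0.27 and 0.20 on that scale. Casr, the calcium-sensing receptor, was at 1.17 ± 0.506 against 2.56 ± 0.771 CPM (log2 change -1.14 ± 0.27, edgeR adjusted p = 0.356). It was 3.99 CPM in control rat 6, the highest of all 18 rats.

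Immune and glial genes of the 30 were lower. Cd4, a coreceptor of helper T cells that rat macrophages and microglia also carry, was at 12.0 to 21.8 CPM in control (median 18.9), 7.99 to 15.2 CPM in chronic ethanol (median 11.9) and 9.75 to 14.8 CPM in withdrawal (median 11.1). The groups overlapped through control rat 5 alone, with 8 of 12 ethanol rats under that rat (log2 change -0.66 ± 0.13, SE; edgeR adjusted p = 0.243). Without rats 5, 8, 13 and 17 it was called (log2 change -0.78, edgeR adjusted p = 0.0467). The 18 microglia genes tested had a median log2 change of -0.02, with 1 at an unadjusted p under 0.05.

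C3, the central complement protein, was at 57.6 to 97.0 CPM in control (median 74.7), 22.4 to 56.2 CPM in chronic ethanol (median 33.4) and 23.8 to 67.4 CPM in withdrawal (median 46.8). All 6 chronic ethanol rats and 4 of 6 withdrawal rats lay below every control (log2 change -0.92 ± 0.22, SE; edgeR adjusted p = 0.356). It was the 1 of 21 complement genes with an unadjusted p under 0.05, and the median of the list was -0.07. Gpr17, a receptor of oligodendrocyte precursors on their way to myelination, was at 33.9 ± 6.69 against 47.7 ± 6.48 CPM (SD, n = 12 and n = 6), with 11 of 12 ethanol rats below every control. Pdgfra, the marker of earlier precursors, lay higher by 0.15, and the 20 myelin genes had a median of -0.05.

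Extracellular matrix genes of the 30 were Col20a1, a fibril-associated collagen, and Adamts14, a protease that trims procollagen. Col20a1 was at 7.39 to 9.66 CPM in control, 5.65 to 7.27 CPM in chronic ethanol and 4.54 to 7.30 CPM in withdrawal, so that no ethanol rat reached the control range (log2 change -0.46 ± 0.10, SE; edgeR adjusted p = 0.243). Adamts14 was at 0.828 ± 0.181 against 1.59 ± 0.644 CPM. Abcg3l3, a transporter-like gene, was at 6.51 ± 1.60 against 10.5 ± 2.42 CPM.

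Complete separation of the 12 ethanol rats from the 6 control rats was seen in 4 genes, 2 lower (0.0113% of those tested) and 2 higher (0.0113%). The lower ones were LOC108352949 and Col20a1. Sprtn, a protease that clears proteins crosslinked to DNA, was higher, at 31.9 to 36.7 CPM after ethanol against 28.7 to 31.9 CPM in control, a gap far smaller than the spread in either group (log2 change 0.16, edgeR adjusted p = 0.493). Dot1l, the methyltransferase of histone H3 lysine in gene bodies, was at 85.3 to 105 CPM in chronic ethanol and 90.1 to 196 CPM in withdrawal against 76.4 to 83.9 CPM in control. Its log2 change was 0.36 ± 0.13 (SE; edgeR adjusted p = 0.948), and its highest value was that of withdrawal rat 13. At least 10 of 12 ethanol rats lay below every control in 62 genes (0.352%) and above in 58 (0.329%).

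Against control, edgeR called no gene in chronic ethanol alone and none in withdrawal alone at an adjusted p under 0.05, beside 1030 and 1732 genes at an unadjusted p under 0.05. The 3 genes below had a mean away from control in 1 ethanol group and near it in the other. No gene differed between withdrawal and chronic ethanol at an adjusted p under 0.05 with edgeR, and 2704 (15.3%) did at an unadjusted p under 0.05. Edn1, the vasoconstrictor peptide endothelin 1, was at 4.84 to 10.4 CPM in chronic ethanol (median 6.41), above every control in 6 of 6 rats. It was at 2.45 to 5.93 CPM in withdrawal (median 2.97) and 2.20 to 3.52 CPM in control (median 3.05). In withdrawal only rat 15 lay above every control. Its log2 change was 1.24 in chronic ethanol and 0.18 in withdrawal, and the difference was -1.06 (95% interval -1.52 to -0.59; edgeR adjusted p = 0.0733). Of 6 endothelin genes tested Edn1 alone had an unadjusted p under 0.05 for any ethanol history.

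Slc25a23, a calcium-dependent carrier of ATP-Mg across the inner mitochondrial membrane, showed the same order, at 265 ± 25.1 CPM in chronic ethanol, 214 ± 16.2 in withdrawal and 210.3 ± 11.5 in control (SD, n = 6). Its difference between withdrawal and chronic ethanol was -0.30 (edgeR adjusted p = 0.0793). Ndrg1, a stress-responsive gene of myelinating cells, had the opposite order, at 427 to 511 CPM in withdrawal (median 459) against 316 to 439 CPM in chronic ethanol (median 336) and 279 to 371 CPM in control (median 340). All 6 withdrawal rats lay above every control, and the difference from chronic ethanol was 0.37 (95% interval 0.20 to 0.55; edgeR adjusted p = 0.0874).

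Interferon response genes lay on opposite sides of control in the 2 ethanol groups. Their median log2 change was -0.53 in chronic ethanol, 0.78 in withdrawal and 0.03 for any ethanol history, and 0 of 33 had an unadjusted p under 0.05 in the joined contrast. The joined median was 0.25 without control rat 3, the highest control, and -0.034 without withdrawal rat 13, the library with pineal RNA. Between withdrawal and chronic ethanol 31 of 33 had an unadjusted p under 0.05 with edgeR (93.9%, beside 15.3% of all genes). All 31 were higher in withdrawal, and the median was 1.27. That difference was not fitted without rat 13. The summed level of the list was high in withdrawal rats 13, 16 and 17 (1000.2, 936 and 803 CPM), while rats 14, 15 and 18 (478, 529 and 504 CPM) lay within the control range of 433 to 682 CPM. Irf7, a transcription factor of the interferon system, was at 1.41 to 4.81 CPM in chronic ethanol (median 2.57), 5.08 to 53.9 CPM in withdrawal (median 16.8) and 2.97 to 11.8 CPM in control (median 6.20). MHC class II genes had a median of -0.83 in chronic ethanol and 0.13 in withdrawal. For any ethanol history that median was -0.33, but 0.03 without control rat 3.

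Single rats carried other list values. The pineal and phototransduction list had a median log2 change of 2.74 over 10 genes tested, and -0.21 without withdrawal rat 13. Choroid plexus genes had a median of 0.51, and -0.15 without that rat. Of 16 pericyte and smooth muscle genes 6 had an unadjusted p under 0.05 (37.5%, beside 4.93% of all genes), Pdgfrb higher and 5 lower. Without control rat 3 none lay lower at that p and the median turned from -0.13 to 0.16. Des, the intermediate filament of muscle, reached 74.0 CPM in control rat 3 beside 4.38 to 14.5 CPM among the other 5 controls, and its log2 change of -1.37 became 0.035 without rat 3. Genes of meninges and collagen had a median of -0.36, and 0.28 without that rat.

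Dopamine neuron genes lay lower in 25 of 28, with a median of -0.19 (-0.06 in chronic ethanol, -0.37 in withdrawal), and 0 had an unadjusted p under 0.05. That median was -0.33 without control rat 5, -0.074 without control rat 2 and -1.27 with the first index as a term. Th, tyrosine hydroxylase, was at 465 ± 203 CPM in control and 385 ± 229 CPM after ethanol (SD, n = 6 and n = 12). Its log2 change of -0.29 had a 95% interval of -1.37 to 0.79 (edgeR adjusted p = 0.964), which holds large falls as well as rises. GABA and glutamate genes had medians of 0.02 and 0.01.

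Of 27 immediate early genes, which neurons switch on within minutes of firing, 23 lay higher, with a median of 0.47, and 4 had an unadjusted p under 0.05 (Dusp6, Jund, Maff and Jun; 14.8%, beside 2.53% higher among all genes). That median was 0.20 without ethanol rat 11, 0.71 without control rat 5 and 0.13 with the first index as a term. Fos stood apart in ethanol rat 11 (123 CPM), control rat 5 (30.3 CPM) and withdrawal rat 13 (27.3 CPM), beside 4.35 to 21.3 CPM in the other 15 rats, and its log2 change of 0.82 ± 0.63 was not called (edgeR adjusted p = 0.948). Among clock genes, Npas2, a partner of BMAL1, was at 26.6 ± 10.5 against 17.7 ± 1.38 CPM, with 10 of 12 ethanol rats above every control, and Per3, a period gene of its negative arm, at 44.6 ± 7.63 against 57.1 ± 6.89 CPM (SD, n = 12 and n = 6). Of 19 clock genes 4 had an unadjusted p under 0.05 (21.1%, beside 4.93% of all genes), 2 in each direction, and the labels give no time of day.

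**Figure D5:**
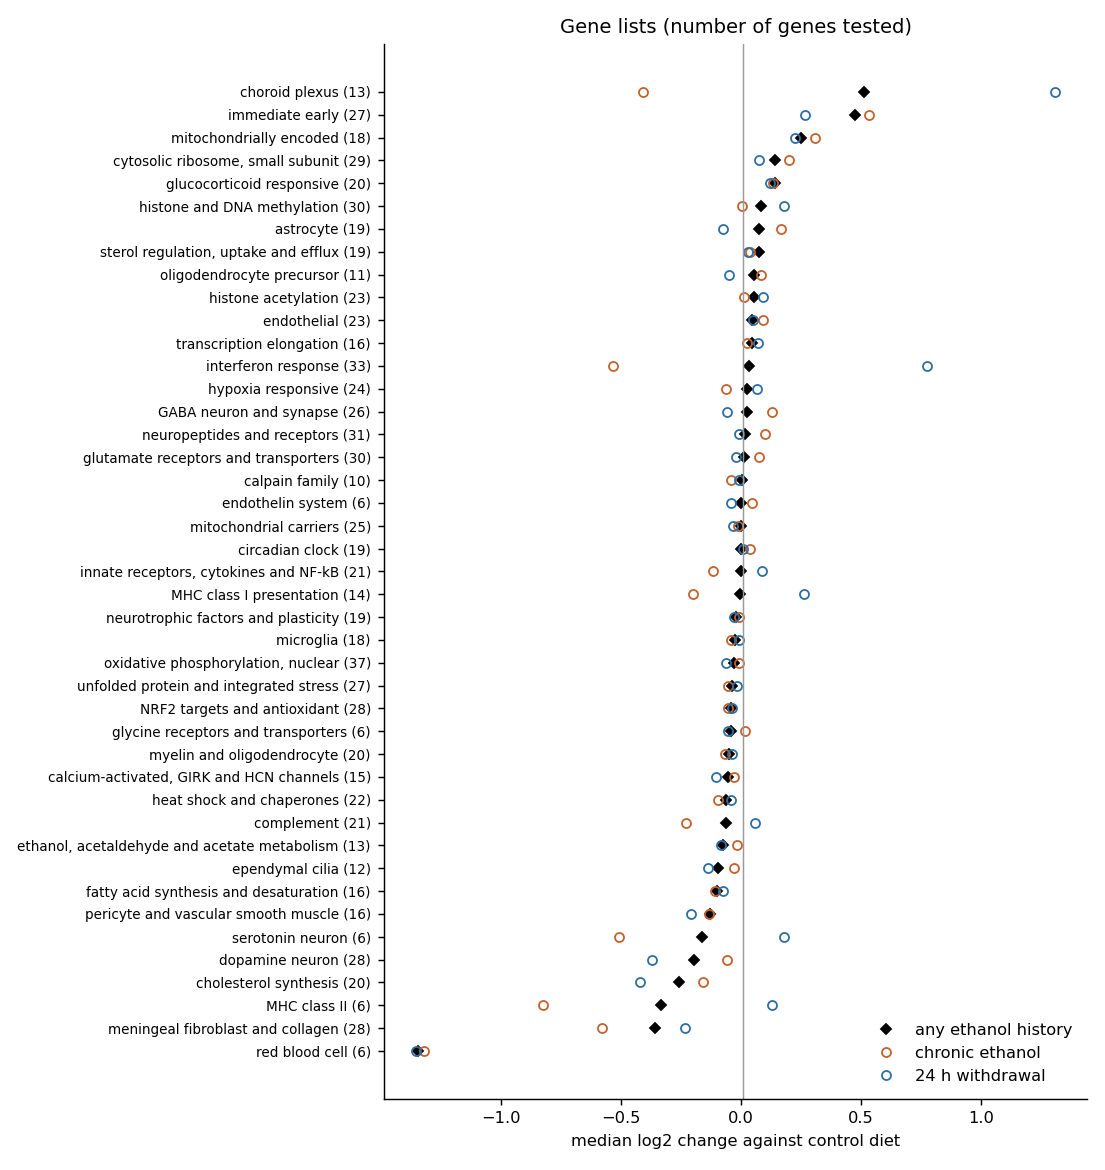
Median log2 change against control diet (x axis) of each gene list, with the number of genes tested in brackets: any ethanol history (black diamonds), chronic ethanol (orange rings) and 24 h withdrawal (blue rings). The grey line is the median of all genes tested (0.0095). The red blood cell list has all 3 marks near -1.35, while the interferon list has its rings on opposite sides, and the pineal list (median 2.74) is left out for scale.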

How the data were processed

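RNA of 18 rat VTA samples was sequenced as paired-end stranded mRNA libraries, per the labels' protocols. The deposited values are counts of fragments per gene, made by the authors with featureCounts 1.5.0 on RefSeq exons of Rnor_6.0, by strand and without pairs that map to different chromosomes, per the file headers. STAR 2.5.2a, R 3.3.3 and limma are named in the submitters' processing notes. Symbols for 29322 of 38445 genes came from the RefSeq table of GRCr8, used for names and promoters. Its coordinates differ from those of the counts.

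Counts were filtered with filterByExpr, scaled with TMM and tested in 1 edgeR 4.0.16 quasi-likelihood fit (R 4.3.3) with 3 group means, two-sided, with Benjamini-Hochberg adjustment over 17637 genes. Standard errors were taken as the size of the log2 change over the root of F. The labels name no grouping of the rats beyond the 3 groups, and each rat gave 1 library. A count of 3, the limit for a gene at 0, stands for 0.0666 to 0.104 CPM, for counting error only. On simulated data with 200 changed genes and no library with foreign tissue, edgeR made 120 calls, 6 of them false. Of 50 genes at each size it found 4% for a log2 change of 0.25, 48% for 0.5, 80% for 1 and 96% for 2.

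Genes were named by a rule: the 30 with the lowest p and at least 1 CPM, genes without overlap, 2 of each of 44 lists and a few always, 116 in all. The 45 followed through the alternatives were picked after their values were seen. The members and the lists were chosen with earlier results of these data known. In the lists, 3 symbols matched no gene, and a few members are counted but not reported here by name. Replicates were checked for copied libraries (smallest chi-square per degree of freedom 12.2). Alternatives were RLE factors, 2 other filters, a 2-group fit, robust fitting, DESeq2 1.42.0, limma-voom (limma 3.58.1), the first index, the dopamine list mean or 1 surrogate variable (sva 3.50.0) as a term, omission of rats 5, 8, 13 and 17, omission of every rat in turn, and a threshold of 0.10.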

Additional observations from a re-analysis of the deposited data

Results flagged for a closer look

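Of 135 groups of 6 rats (45 genes by 3 groups), 16 held a rat whose gap to its neighbour exceeded Dixon's 95% limit as a part of the range. The 45 genes were picked after their values were seen and the same rats recur, so the count is not set against a chance rate. Withdrawal rat 13 accounted for 5 of them: Acat2l1 at 3.89 CPM and Stard4 at 14.3 CPM were its low values, and Dot1l at 196 CPM, Npas2 at 55.9 CPM and Fos at 27.3 CPM its high ones. Ethanol rat 10 was highest of its group for Capn6 (2.44 CPM), LOC108352949 (9.81 CPM), Rpsa (504.6 CPM) and Gpr17 (48.3 CPM). Single high values were Cd4 in withdrawal rat 16 (14.8 CPM), Edn1 in withdrawal rat 15 (5.93 CPM), Casr in control rat 6 (3.99 CPM), Des in control rat 3 (74.0 CPM), Fos in control rat 5 (30.3 CPM) and Fos in ethanol rat 11 (123 CPM). Ndrg1 was low in control rat 1 (279 CPM).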

How the results depend on the processing

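The 2 calls, Capn6 and LOC108352949, were also the count with RLE factors, no filter (29134 genes tested), a stricter filter, robust fitting, limma-voom or an adjusted p of 0.10. A 2-group fit called 1 gene, the first index or the dopamine list mean as a term 0, 1 surrogate variable 5, DESeq2 32, and the fit without rats 5, 8, 13 and 17 called 4 (Capn6, Idh1, Kif5a and Cd4). The surrogate variable was 0.967 for rat 13, far above the others. Leaving out 1 rat gave 0 to 5 calls: 0 in 14 of 18 fits, 5 without withdrawal rat 13, 3 without control rat 5, 2 without ethanol rat 10 and 1 without withdrawal rat 18. The 4 genes without overlap became 5 with RLE factors and 48 without the 4 rats, where fewer samples are compared. Signs turned for Fos with the index as a term (log2 change -0.046), Irf7 without the 4 rats (-0.17) or without withdrawal rat 13, and Des without control rat 3. With 1 rat left out Irf7 ran from -0.036 to 0.47 and Des from -1.58 to 0.035, and rat 13 and rat 3 gave the turned ends. Beyond these named changes the causes were not tested. The counts of list members without rat 3, without rat 13, without the 4 rats and with the index as a term were added after the data were seen. No paired analysis was possible because the rat numbers are not shared between groups. At this depth and spread a log2 change of 0.25 was seldom found in simulation (4%). The simulation held 200 changed genes and no library with foreign tissue, so its shares found can exceed those in these data. Hbb, at a log2 change of -1.36, was not called with edgeR. Differences that did not pass, small or large, are therefore not shown to be absent.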
